A study of Mus musculus with 9 samples.

Results

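Collagens and other matrix genes that fibroblasts express were described here in white gastrocnemius, the pale fast part of a calf muscle, in mice lacking Gaa and in wild-type mice. The 33 members were chosen by name. They are fibrillar, basement membrane, microfibrillar and fibril-associated collagens, laminins, fibronectin, elastic fibre genes, small leucine-rich proteoglycans, matricellular proteins, lysyl oxidases, the growth factor gene Tgfb1 and the receptor gene Pdgfra. The choice used no measured value as its rule, but it was made with earlier results of these libraries known. Of the 33, 32 were found among the 18062 genes measured, and Col6a3 was not analysed here. All 32 had a mean of at least 0.5 RPKM (reads scaled to transcript length and library size) over the 9 libraries, the filter for testing, so none was left out for a low value.

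Acid alpha-glucosidase, encoded by Gaa, breaks down glycogen in lysosomes, and mice without it model Pompe disease, a glycogen storage disorder of muscle. The knock-out was a targeted disruption of exon 6, with loxP sites in the flanking introns. The line was kept by mating brothers with sisters for more than 20 generations. All 9 libraries were labelled as of a mixed strain background, which the protocol gives as BL6/129j, and no drug or other treatment was named for any of them. There were 5 knock-out libraries, all from mice of 5 months, and 4 wild-type libraries, 2 from mice of 5 months and 2 from mice of 6 months. The value columns of the wild type carry a number and no age, so the 4 form 1 group and are called wild-type libraries 1 to 4. The labels number the libraries without naming animals, so p-values measure the spread between libraries. Whether wild-type mice came from the same colony is not said.

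The extracellular matrix of muscle has layers with different makers and roles. Each fibre is wrapped in a basement membrane of laminin and collagen IV, joined by nidogen and perlecan, and anchored through collagen VI to an outer mesh of fibrillar collagens I, III and V, which fibroblasts secrete. Small leucine-rich proteoglycans such as decorin and lumican coat collagen fibrils and set their spacing, lysyl oxidases crosslink them, and transforming growth factor beta 1 is a known inducer of many of these genes in fibroblasts. In glycogen storage and other muscle diseases the same genes are commonly read as signs of fibrosis.

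RefSeq promoters of assembly GRCm38.p6 were at hand for 23 of the 33 members. The 250 bases before the start are shown for 6 of them. Cilp, Tgfb1 and Pdgfra are shown because they had the largest increases among members with an entry, Thbs4 because it was lower in every knock-out library, and Col1a2 and Col3a1 because they stand for the fibrillar collagens. Each runs 5′ to 3′ in the direction of the gene, and capitals mark every match on either strand to TATAAA (the TATA box), CCAAT (the CCAAT box), GGGCGG (the GC box) or TGANTCA (the AP-1 site).
Cilp, chr9:65264930-65265179, plus strand: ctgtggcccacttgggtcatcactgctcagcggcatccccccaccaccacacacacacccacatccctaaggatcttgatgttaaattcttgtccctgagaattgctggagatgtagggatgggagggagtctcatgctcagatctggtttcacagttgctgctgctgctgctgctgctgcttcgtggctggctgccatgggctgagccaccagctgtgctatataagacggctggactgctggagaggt
Tgfb1, chr7:25686752-25687001, plus strand: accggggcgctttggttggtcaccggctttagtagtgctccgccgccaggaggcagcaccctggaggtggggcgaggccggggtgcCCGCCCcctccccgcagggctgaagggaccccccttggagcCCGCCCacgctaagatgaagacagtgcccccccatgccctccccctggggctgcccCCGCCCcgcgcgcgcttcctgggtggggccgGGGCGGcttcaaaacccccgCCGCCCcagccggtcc
Pdgfra, chr5:75152001-75152250, plus strand: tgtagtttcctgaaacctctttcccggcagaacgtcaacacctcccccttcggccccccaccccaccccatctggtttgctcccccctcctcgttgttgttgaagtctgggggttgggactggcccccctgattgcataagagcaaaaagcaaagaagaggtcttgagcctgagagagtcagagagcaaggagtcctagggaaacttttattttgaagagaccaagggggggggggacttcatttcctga
Thbs4, chr13:92794819-92795068, minus strand: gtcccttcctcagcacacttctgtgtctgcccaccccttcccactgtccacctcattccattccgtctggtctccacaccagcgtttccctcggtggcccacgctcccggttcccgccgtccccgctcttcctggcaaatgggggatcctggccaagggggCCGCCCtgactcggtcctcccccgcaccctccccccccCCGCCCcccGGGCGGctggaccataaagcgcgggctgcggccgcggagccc
Col1a2, chr6:4505368-4505617, plus strand: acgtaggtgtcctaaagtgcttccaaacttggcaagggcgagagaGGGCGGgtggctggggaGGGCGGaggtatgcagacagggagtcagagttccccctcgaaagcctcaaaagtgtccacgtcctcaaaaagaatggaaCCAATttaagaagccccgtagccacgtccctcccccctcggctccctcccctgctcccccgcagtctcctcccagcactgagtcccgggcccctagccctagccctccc
Col3a1, chr1:45311288-45311537, plus strand: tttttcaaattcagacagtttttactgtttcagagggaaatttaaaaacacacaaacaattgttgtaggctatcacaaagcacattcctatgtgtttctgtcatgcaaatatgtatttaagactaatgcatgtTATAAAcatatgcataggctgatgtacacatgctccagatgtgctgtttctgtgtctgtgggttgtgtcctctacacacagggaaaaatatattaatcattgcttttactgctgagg

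The Tgfb1 window held 5 GC boxes and the Thbs4 window 3, so the member that rose and the member that fell share this feature. Col1a2 had 2 GC boxes and 1 CCAAT box, Col3a1 had 1 TATA box, and the windows of Cilp and Pdgfra had no match to the 4 motifs. A GC box lay in 11 of 23 member promoters (47.8%) against 32.7% of 32851 promoters of the same length, a CCAAT box in 5 (21.7%, against 33.8%), a TATA box in 3 (13.0%, against 12.4%) and an AP-1 site in 1 (4.35%, against 6.75%). Matches of different motifs may overlap, and a match is a description of the letters in the window only.

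The libraries were first read for what bears on these genes. Gaa, the targeted gene, measured 3.11 to 3.64 RPKM in knock-out libraries and 46.0 to 56.0 RPKM in wild-type libraries (log2 difference -3.80, SE 0.07, exact two-sided permutation p = 0.0079, the smallest that 126 splits can give). The 8 fast fibre markers, the tissue check, summed to 87251 to 99544 RPKM (knock-out) and 81853 to 88225 RPKM (wild type), so both genotypes held fast muscle. From the step of 1 read in low values, 1 RPKM of a 1-kilobase transcript stood for 17.6 reads in knock-out library 3, 32.1 to 37.6 in the other knock-out libraries and 37.2 to 64.3 in the wild type. The wild-type libraries fell into 2 pairs, and whether these are the 2 ages cannot be told from the column names. The chi-square per gene between 2 libraries was computed on approximate counts rebuilt from the steps of 1 read. It was 4.49 between wild-type libraries 1 and 2 and 4.05 between 3 and 4, but 13.7 to 15.5 across the pairs. Among the knock-out libraries it was 3.06 to 6.79. Calls that rest on 1 pair are given with and without it. The median log2(RPKM + 0.1) difference of the 11032 genes tested was 0.12, and centring each library on its own median log ratio moved it by 0.13. Differences are given as deposited unless another setting is named. Folds are 2 to the power of the size of the log2 difference, not ratios of the mean RPKM. With all libraries, the centred difference of a gene lies 0.13 below the deposited one.

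Of the 32 matrix genes, 12 were higher and 3 lower in the knock-out, and 17 did not pass the test (limma on log2(RPKM + 0.1), Benjamini-Hochberg adjusted over all 11032 genes, threshold 0.05). These are 37.5% and 9.38% of the members, where 37.0% of all tested genes were called higher and 14.8% lower, so the higher share lies close to the background and the lower share below it. The median member difference was 0.29. With the libraries centred, 10 members were higher and 8 lower, against 25.1% and 24.9% of all genes, and the median member was at 0.17 where the median gene was at -0.0032. The 10 were all among the 12 called higher as deposited, and the 8 included the 3 called lower. All 5 knock-out values lay above all 4 wild-type values for 7 members (21.9%, background 30.9%) and below them for 1 member (background 11.4%). The number of lower calls rested on single libraries: without knock-out library 3 or 5 or wild-type library 3 or 4 they numbered 1, and without knock-out library 4 they numbered 6. Against wild-type libraries 3 and 4 alone, 6 members were higher and 6 lower (28.6% and 13.5% of all genes), and against libraries 1 and 2 alone 13 and 2 (36.8% and 12.0%).

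**Figure D1:**
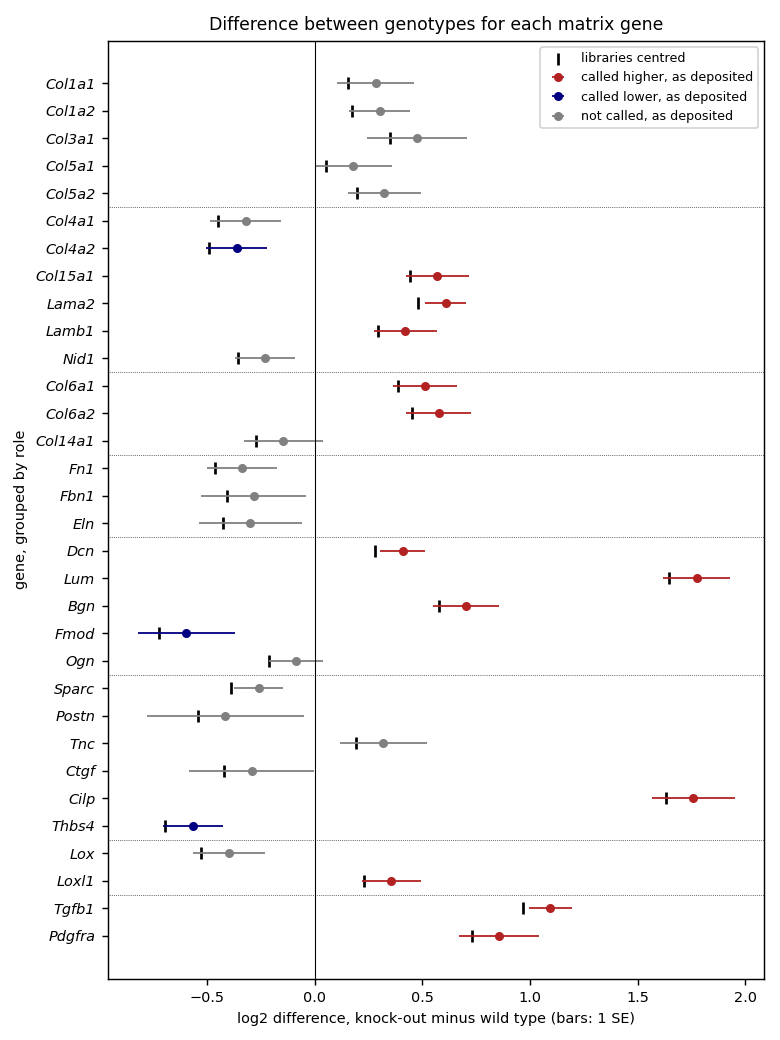
Log2 difference, knock-out minus wild type, on the log2(RPKM + 0.1) scale (x axis) for each of the 32 matrix genes (y axis, grouped by role, dotted lines between groups). Points are the values as deposited with bars of 1 SE, coloured by call, and black ticks are the values with libraries centred; Lum and Cilp lie farthest to the right, and the 5 fibrillar collagens at the top are all right of 0 and uncalled.

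The 2 signalling genes of the list both rose. Tgfb1, which encodes the growth factor, measured 3.22, 3.06, 3.01, 2.33 and 2.90 RPKM in knock-out libraries 1 to 5. Wild-type values were 1.34, 1.40, 1.25 and 1.21 RPKM. Its lowest knock-out value was above its highest wild-type value, and the means were 2.91 ± 0.343 RPKM in the knock-out (SD, n = 5) against 1.301 ± 0.0861 in the wild type (SD, n = 4). The log2 difference was 1.10, or 2.14-fold (SE 0.10, limma adjusted p = 4.2e-06). Pdgfra, the receptor of platelet-derived growth factor that marks fibroblasts and their progenitors in muscle, measured 2.95, 4.20, 3.76, 4.76 and 3.63 RPKM in knock-out libraries 1 to 5. Wild-type values were 1.78, 1.45, 2.43 and 2.87 RPKM. The groups again did not overlap, though wild-type library 4 came close to knock-out library 1, and the means were 3.86 ± 0.676 RPKM in the knock-out (SD, n = 5) against 2.13 ± 0.641 in the wild type (SD, n = 4) (1.81-fold, log2 difference 0.86, SE 0.18, limma adjusted p = 0.0024). The 2 Pdgfra transcripts were both higher on average, at 1.38 against 0.851 and 2.48 against 1.28 RPKM. Against wild-type libraries 3 and 4 alone the difference of Pdgfra was 0.51, adjusted p = 0.021, and against 1 and 2 alone 1.20, adjusted p = 1.3e-04. For Tgfb1 these values were 1.17 and 1.02.

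The small leucine-rich proteoglycans, which bind collagen fibrils, did not move as 1 group: 3 of 5 rose and 1 fell, as deposited and centred. Lum, encoding lumican, had the largest difference of all members. It measured 26.3, 25.3, 29.3, 32.2 and 31.6 RPKM in knock-out libraries 1 to 5. Wild-type values were 8.85, 5.54, 9.46 and 10.4 RPKM. The lowest knock-out library was above the highest wild-type library, and the means were 28.9 ± 3.07 RPKM in the knock-out (SD, n = 5) against 8.57 ± 2.12 in the wild type (SD, n = 4) (3.42-fold, log2 difference 1.78, SE 0.16, limma adjusted p = 3.1e-06). Bgn, encoding biglycan, measured 14.2, 19.7, 13.8, 21.2 and 18.1 RPKM in knock-out libraries 1 to 5. Wild-type values were 10.3, 7.92, 12.4 and 12.0 RPKM. Its groups did not overlap, and it rose 1.63-fold (log2 difference 0.70, SE 0.15, limma adjusted p = 0.0026).

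Dcn, encoding decorin, was the most abundant member per length in every library, at 183, 166, 175, 212 and 195 RPKM in knock-out libraries 1 to 5. Wild-type values were 129, 117, 149.96 and 168 RPKM. Wild-type library 4 lay above knock-out library 2, so the groups overlapped, and the rise was 1.33-fold (log2 difference 0.41, SE 0.10, limma adjusted p = 0.0062). The call on Dcn ended with quantile normalization (0.14, adjusted p = 0.33), with a trend with transcript length removed (0.21, adjusted p = 0.1) and without wild-type libraries 1 and 2 (0.22, adjusted p = 0.082). Fmod, encoding fibromodulin, a proteoglycan abundant in tendon, went the other way, at 18.8, 20.9, 10.2, 15.4 and 13.8 RPKM in knock-out libraries 1 to 5. Wild-type values were 17.9, 17.4, 31.3 and 29.9 RPKM. Its wild-type pairs differed: libraries 1 and 2 lay within the knock-out range and libraries 3 and 4 above it. Fmod was called lower (1.51-fold, log2 difference -0.60, SE 0.23, limma adjusted p = 0.045). The call ended without knock-out library 3, 4 or 5 or wild-type library 3 or 4 (-0.60 to -0.45, adjusted p from 0.069 to 0.12), and without both of the latter (-0.20, adjusted p = 0.45). Ogn, encoding osteoglycin, ran from 11.5 to 15.7 RPKM in knock-out libraries, against 10.9 to 16.7 RPKM in wild-type libraries and was not called (log2 difference -0.09, SE 0.13, limma adjusted p = 0.58). Its sign turned without wild-type library 4 (0.02).

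Among the matricellular genes, whose secreted proteins act on cells and growth factors more than they build fibres, 1 of 6 rose and 1 fell. Cilp, cartilage intermediate layer protein, had the next largest difference of the members, at 10.6, 12.6, 12.2, 11.2 and 9.50 RPKM in knock-out libraries 1 to 5. Wild-type values were 2.98, 2.09, 3.40 and 5.05 RPKM. No values overlapped, and the means were 11.2 ± 1.23 RPKM in the knock-out (SD, n = 5) against 3.38 ± 1.24 in the wild type (SD, n = 4) (3.39-fold, log2 difference 1.76, SE 0.19, limma adjusted p = 1.8e-05). Thbs4, a thrombospondin of tendon and of the muscle-tendon junction, measured 15.3, 17.0, 11.2, 15.9 and 10.3 RPKM in knock-out libraries 1 to 5. Wild-type values were 18.5, 19.8, 21.7 and 21.5 RPKM. It was the 1 member whose knock-out values all lay below the wild-type values, and it fell 1.48-fold (log2 difference -0.57, SE 0.14, limma adjusted p = 0.0051). Sparc, a collagen-binding glycoprotein, ran from 48.0 to 71.3 RPKM in knock-out libraries, against 59.5 to 72.2 RPKM in wild-type libraries and was not called as deposited (log2 difference -0.26, SE 0.11, limma adjusted p = 0.076), but was called lower when centred (-0.39, adjusted p = 0.0086) and without knock-out library 4 (-0.35, adjusted p = 0.011).

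The other 3 matricellular genes did not pass the test, and 1 or 2 wild-type libraries decided the sign of a pair of them. Postn, encoding periostin, was at 9.16 RPKM in wild-type library 1 and at 1.84 to 2.61 RPKM in the other wild-type libraries, with the knock-out at 1.82 to 3.04 RPKM. Its 3 transcripts were each highest in that library, at 2.42, 4.21 and 2.54 RPKM. The difference of Postn was -0.42 (adjusted p = 0.36) with all libraries and 0.08 (adjusted p = 0.71) without wild-type library 1. Ctgf, connective tissue growth factor, a target of transforming growth factor beta, measured 8.84, 9.42, 6.19, 9.39 and 7.75 RPKM in knock-out libraries 1 to 5. Wild-type values were 16.1, 16.2, 6.88 and 5.76 RPKM. The wild-type pairs lay on either side of most knock-out values: against libraries 3 and 4 alone the difference was 0.38, adjusted p = 0.066, and against libraries 1 and 2 alone -0.96, adjusted p = 3.0e-04. With all 4 it was -0.29 (adjusted p = 0.42), so no direction holds for Ctgf. Tnc, encoding tenascin C, ran from 0.524 to 0.914 RPKM in knock-out libraries, against 0.401 to 0.650 RPKM in wild-type libraries (log2 difference 0.32, SE 0.20, limma adjusted p = 0.2).

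**Figure D2:**
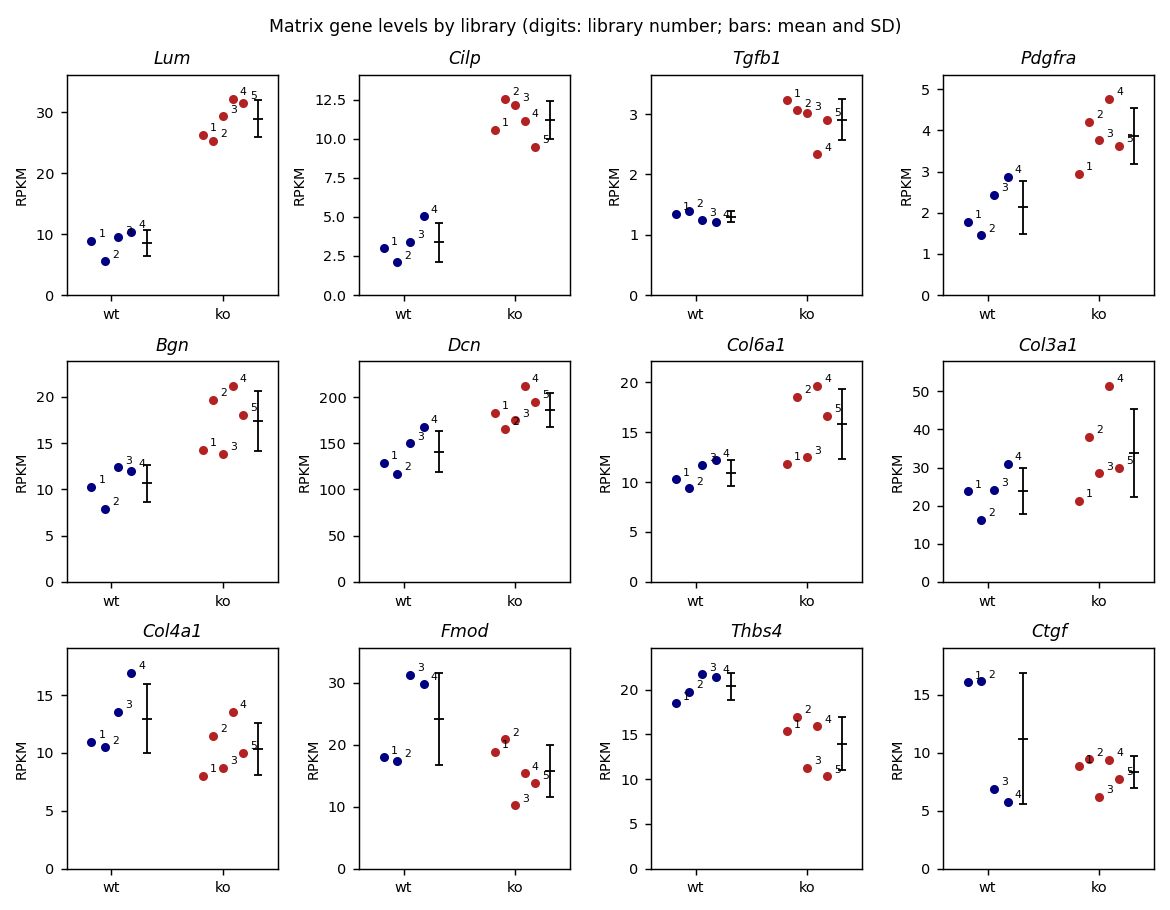
RPKM (y axis, from 0) of 12 matrix genes in the wild-type (blue) and knock-out (red) libraries, with each point's digit giving the library number and bars the mean and SD. Lum, Cilp, Tgfb1, Pdgfra and Bgn have no overlap between genotypes, while Ctgf shows wild-type libraries 1 and 2 at 16.1 and 16.2 RPKM and libraries 3 and 4 at 6.88 and 5.76 RPKM.

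The fibrillar collagens, which form the tensile fibrils of connective tissue, were not called in the knock-out. All 5 had a positive difference, with a median of 0.30 (0.17 centred). Without wild-type libraries 1 and 2 Col5a1 turned to -0.046. With all libraries, none of the 5 passed the test in either direction. Col3a1, the chain of collagen III, had the largest of these differences, at 21.2, 38.0, 28.5, 51.4 and 29.9 RPKM in knock-out libraries 1 to 5. Wild-type values were 23.7, 16.3, 24.1 and 31.0 RPKM. Knock-out libraries 2 and 4 lay above all wild-type libraries and knock-out library 1 below 3 of the 4 (log2 difference 0.48, SE 0.23, limma adjusted p = 0.11). Col1a1, a chain of collagen I, measured 14.1, 18.8, 12.4, 23.7 and 13.6 RPKM in knock-out libraries 1 to 5. Wild-type values were 13.9, 10.3, 14.4 and 14.5 RPKM. Its difference was not called (log2 difference 0.28, SE 0.18, limma adjusted p = 0.2). Here too knock-out libraries 2 and 4 were high, while 1, 3 and 5 lay within the wild-type range.

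Col1a2, the other collagen I chain, ran from 23.8 to 39.5 RPKM in knock-out libraries, against 19.8 to 27.7 RPKM in wild-type libraries (log2 difference 0.30, SE 0.14, limma adjusted p = 0.095). Col5a1 and Col5a2, chains of the collagen V that nucleates fibrils, had differences of 0.18 (adjusted p = 0.42) and 0.32 (adjusted p = 0.13). Single libraries decided some of these calls: without knock-out library 1, Col3a1 (0.63, adjusted p = 0.034) and Col5a2 (0.44, adjusted p = 0.035) passed the test, and without knock-out library 3 Col1a2 did (0.38, adjusted p = 0.045). Without wild-type libraries 3 and 4, Col1a2 (0.47, adjusted p = 0.031) and Col3a1 (0.71, adjusted p = 0.047) also passed, whereas without libraries 1 and 2 the 5 adjusted p ran from 0.48 to 0.87.

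Within the basement membrane, the sheet around each fibre and capillary, 2 laminin genes and Col15a1 rose while Col4a2 fell. Of 6 members, 3 rose and 1 fell as deposited, and 2 rose and 3 fell when centred. Lama2, the laminin alpha chain of muscle fibres, measured 4.92, 6.01, 5.71, 7.04 and 6.21 RPKM in knock-out libraries 1 to 5. Wild-type values were 3.76, 3.64, 3.76 and 4.33 RPKM. The groups did not overlap, and it rose 1.52-fold (log2 difference 0.61, SE 0.10, limma adjusted p = 2.7e-04). Col15a1, a collagen that links the basement membrane to the mesh outside it, rose 1.48-fold, from 4.04 ± 0.902 to 6.00 ± 0.907 RPKM (log2 difference 0.57, SE 0.15, limma adjusted p = 0.0066), with wild-type library 4 (5.14 RPKM) above the lowest knock-out values and no call without wild-type libraries 1 and 2 (0.31, adjusted p = 0.089). Lamb1, a laminin beta chain, ran from 3.35 to 4.98 RPKM in knock-out libraries, against 2.49 to 3.61 RPKM in wild-type libraries and was called higher (log2 difference 0.42, SE 0.15, limma adjusted p = 0.03).

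The call on Lamb1 was lost when the libraries were centred (0.29, adjusted p = 0.075) and without any 1 of knock-out libraries 2, 4 and 5 or wild-type libraries 1 and 2 (0.32 to 0.40, adjusted p from 0.061 to 0.091). Without both of these wild-type libraries Lamb1 was at 0.21, adjusted p = 0.3. Col4a1 and Col4a2, the collagen IV chains of all basement membranes, are transcribed from start sites beside each other on opposite strands. Col4a2 measured 7.68, 11.05, 7.71, 11.4 and 8.57 RPKM in knock-out libraries 1 to 5. Wild-type values were 10.3, 10.3, 12.9 and 14.0 RPKM. The groups overlapped, and it was called lower (1.29-fold, log2 difference -0.36, SE 0.14, limma adjusted p = 0.048). Without knock-out library 1, 3 or 5 or wild-type library 3 or 4 the difference was -0.34 to -0.28 and the adjusted p 0.093 to 0.14. Without both wild-type libraries 3 and 4 it was -0.17, adjusted p = 0.38, and without 1 and 2 it was -0.56, adjusted p = 0.014. Col4a1 measured 8.01, 11.5, 8.74, 13.6 and 10.01 RPKM in knock-out libraries 1 to 5. Wild-type values were 10.9, 10.5, 13.5 and 16.9 RPKM. Its difference was -0.32 (adjusted p = 0.13), and it was called lower when centred (-0.45, adjusted p = 0.029) and without knock-out library 4 (-0.42, adjusted p = 0.042). Its size differed between the pairs: Col4a1 was called lower without wild-type libraries 1 and 2 (-0.57, adjusted p = 0.023) and was at -0.073 (adjusted p = 0.74) without 3 and 4. Nid1, the linker between laminin and collagen IV, ran from 6.32 to 9.53 RPKM in knock-out libraries, against 7.55 to 11.5 RPKM in wild-type libraries (log2 difference -0.23, SE 0.14, limma adjusted p = 0.18). It was called lower when centred (-0.36, adjusted p = 0.031) or quantile normalized, and without wild-type libraries 1 and 2 (-0.47, adjusted p = 0.016). Without libraries 3 and 4 it was at 0.0052.

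Collagen VI, a beaded microfibril around muscle fibres whose chains are made mostly by fibroblasts, was higher in both chains measured. Col6a2 measured 11.3, 16.7, 11.4, 19.6 and 15.2 RPKM in knock-out libraries 1 to 5. Wild-type values were 9.25, 8.70, 10.2 and 10.7 RPKM. Its groups did not overlap, and it rose 1.49-fold (log2 difference 0.58, SE 0.15, limma adjusted p = 0.0074). Col6a1 measured 11.8, 18.5, 12.5, 19.6 and 16.6 RPKM in knock-out libraries 1 to 5. Wild-type values were 10.3, 9.36, 11.7 and 12.2 RPKM. Wild-type library 4 lay above knock-out library 1, and Col6a1 rose 1.43-fold (log2 difference 0.51, SE 0.15, limma adjusted p = 0.013). Both calls ended without wild-type libraries 1 and 2 (0.37 for Col6a1, adjusted p = 0.12, and 0.47 for Col6a2, adjusted p = 0.066). Col14a1, a collagen on the surface of fibrils, was low, at 0.612 to 0.925 RPKM in knock-out libraries, against 0.606 to 1.18 RPKM in wild-type libraries (log2 difference -0.14, SE 0.19, limma adjusted p = 0.54), and its sign turned without wild-type library 4 (0.016).

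Fibronectin and the elastic fibre genes had negative differences, and none of the 3 passed the test as deposited. Fn1, encoding fibronectin, an adhesive glycoprotein of early matrix, ran from 3.62 to 6.78 RPKM in knock-out libraries, against 4.88 to 7.48 RPKM in wild-type libraries (log2 difference -0.34, SE 0.16, limma adjusted p = 0.11). It was called lower when centred (-0.46, adjusted p = 0.024), without knock-out library 4 (-0.45, adjusted p = 0.023) and without wild-type library 2 (-0.45, adjusted p = 0.041). Fbn1, the fibrillin of microfibrils, ran from 1.63 to 3.26 RPKM in knock-out libraries, against 1.81 to 3.94 RPKM in wild-type libraries (log2 difference -0.28, SE 0.24, limma adjusted p = 0.35), and Eln, elastin, from 1.78 to 3.59 RPKM in knock-out libraries, against 2.35 to 4.60 RPKM in wild-type libraries (log2 difference -0.30, SE 0.24, limma adjusted p = 0.32). Without wild-type libraries 3 and 4 the signs of Fbn1 and Eln turned (0.08 for both), and without libraries 1 and 2 Eln was called lower (-0.67, adjusted p = 0.045).

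Of the 2 crosslinking enzymes, 1 was called higher as deposited. Lox, lysyl oxidase, which oxidizes lysines of collagen and elastin, ran from 0.906 to 1.54 RPKM in knock-out libraries, against 1.35 to 1.88 RPKM in wild-type libraries (log2 difference -0.40, SE 0.17, limma adjusted p = 0.065), and was called lower when centred (-0.53, adjusted p = 0.014) and without knock-out library 2 (-0.49, adjusted p = 0.028) or 4 (-0.49, adjusted p = 0.029). Loxl1, its relative that acts on elastic fibres, measured 2.71, 3.42, 2.41, 4.12 and 3.04 RPKM in knock-out libraries 1 to 5. Wild-type values were 2.59, 2.10, 2.30 and 2.61 RPKM. The groups overlapped and it was called higher by a narrow margin (log2 difference 0.36, SE 0.14, limma adjusted p = 0.048), a call that held in 5 of 21 alternatives. It ended without either wild-type pair (0.32, adjusted p = 0.15, without 1 and 2, and 0.39, adjusted p = 0.089, without 3 and 4). Leaving out knock-out library 2, 4 or 5 or any 1 wild-type library ended it (0.25 to 0.40, adjusted p from 0.052 to 0.12), as did centring (0.23, adjusted p = 0.16).

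Over the 15 members called, 7 kept direction and call in all 21 alternatives tried: Lama2, Lum, Bgn, Cilp, Tgfb1 and Pdgfra higher and Thbs4 lower. The adjusted p of these 7 stayed at or below 0.043 (Thbs4, without wild-type libraries 3 and 4). Col15a1 and Col6a2 lost the call in 1 alternative each. Col6a1 lost it in 2 and Dcn in 3, Col4a2, Lamb1 and Fmod in 10 each and Loxl1 in 16.

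**Figure D3:**
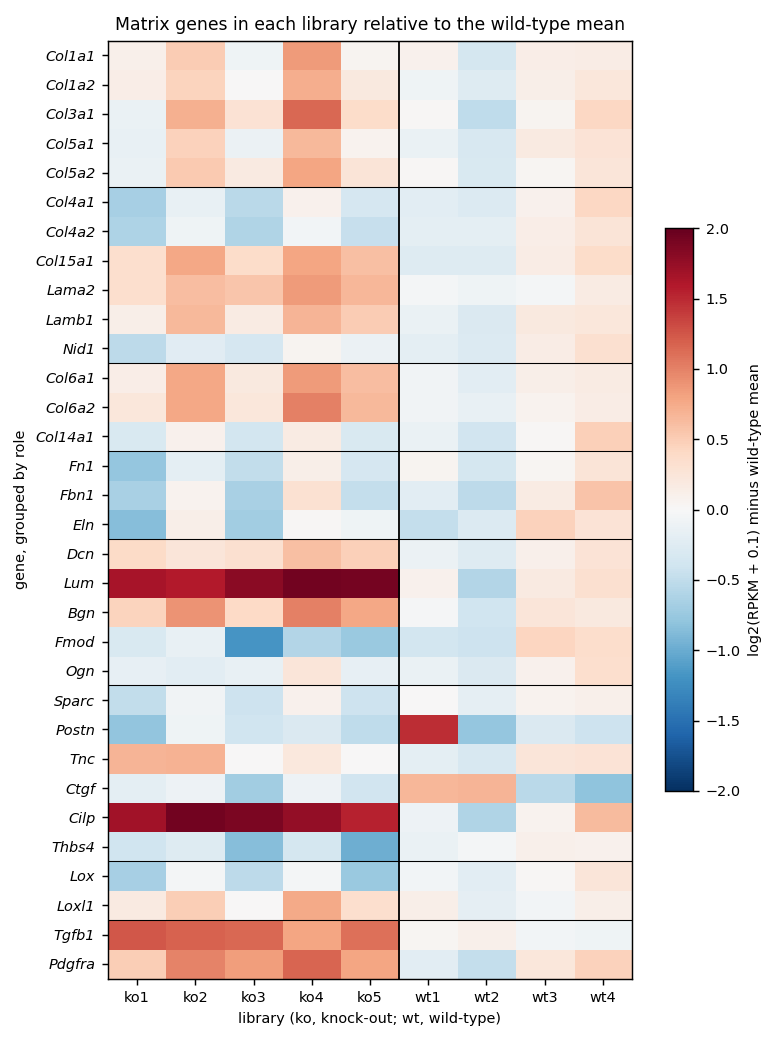
Difference of each library from the wild-type mean on the log2(RPKM + 0.1) scale (colour, red above and blue below) for the 32 matrix genes (rows, grouped by role) in the 9 libraries (columns). Lum, Cilp, Tgfb1 and Pdgfra are red in all 5 knock-out columns, knock-out libraries 2 and 4 are red for the fibrillar collagens, and wild-type library 1 stands out for Postn.

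Within a genotype, the same libraries were high or low for many members. Knock-out library 4 had the highest knock-out value for 23 of the 32 members and library 2 for 8, while library 1 had the lowest for 16 and library 3 for 9. Among wild-type libraries, library 4 was highest for 25 members and library 2 lowest for 26. The median member difference from the wild-type mean was 0.62 in knock-out library 4, 0.45 in library 2 and -0.13 to 0.06 in libraries 1, 3 and 5, and -0.28, -0.10, 0.10 and 0.26 in wild-type libraries 2, 1, 3 and 4. Summed RPKM of the 32 members overlapped, at 475 to 651 RPKM in knock-out libraries and 382 to 528 in the wild type.

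The pattern was not shared by all members. For Tgfb1, knock-out library 4 was the lowest of its group and library 1 the highest. Pdgfra followed the pattern, with its highest knock-out value in library 4 (4.76 RPKM) and its lowest in library 1 (2.95 RPKM). Over the 5 fibrillar collagens the library median was 0.80 in knock-out library 4 and 0.51 in library 2. It was -0.13 to 0.19 in the other 3. Over Tgfb1 and Pdgfra the library median was 0.87 to 1.08 in all 5, a midpoint of 2 genes whose highest and lowest libraries were swapped. The wide spread of the fibrillar collagens within the knock-out was part of every test on them: the SD of Col3a1 was 11.5 RPKM in the knock-out and 6.01 RPKM in the wild type.

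Ratios of 2 members within a library do not move with the scaling of that library, and 10 pairs chosen by role were compared by exact two-sided permutation tests with adjustment over the 10. Chains of 1 molecule had ratios that were not called. Col1a1 to Col1a2 was 0.549 ± 0.0415 against 0.556 ± 0.0477 (log2 difference -0.02, exact adjusted p = 0.82). Col4a1 to Col4a2 was 1.11 ± 0.0711 against 1.08 ± 0.0842 (0.04, exact adjusted p = 0.6), Col6a1 to Col6a2 1.07 ± 0.0449 against 1.12 ± 0.0324 (-0.06, exact adjusted p = 0.19) and Col5a1 to Col5a2 0.747 ± 0.0594 against 0.827 ± 0.0704 (-0.14, exact adjusted p = 0.19). Col3a1 to Col1a1 (0.19, exact adjusted p = 0.28) and Bgn to Dcn (0.29, exact adjusted p = 0.16) were not called either.

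In 4 ratios the genotypes did not overlap, each with an exact permutation p of 0.0079 (the smallest possible) and an adjusted p of 0.02. Col4a1 to Col1a1, a basement membrane chain over a fibrillar one, was 0.569, 0.611, 0.707, 0.573 and 0.735 in knock-out libraries 1 to 5 and 0.787, 1.02, 0.942 and 1.17 in wild-type libraries 1 to 4 (log2 difference -0.60). Relative to collagen I, collagen IV transcripts were lower in every knock-out library. Lum to Dcn was 0.144, 0.153, 0.168, 0.152 and 0.162 in knock-out libraries 1 to 5 and 0.0687, 0.0473, 0.0631 and 0.0621 in wild-type libraries 1 to 4 (1.37), so lumican rose relative to decorin. Lum to Fmod was 1.40, 1.21, 2.87, 2.09 and 2.28 in knock-out libraries 1 to 5 and 0.493, 0.318, 0.302 and 0.349 in wild-type libraries 1 to 4 (2.37). Lum alone had no overlap between genotypes, so the separation in the 2 ratios that hold Lum is not independent of its own call. Fibromodulin and lumican are close relatives that bind the same region of collagen I, and their order by level per length differed: Fmod was above Lum in every wild-type library and Lum above Fmod in every knock-out library. Lox to Loxl1 was 0.354, 0.451, 0.440, 0.371 and 0.298 in knock-out libraries 1 to 5 and 0.584, 0.641, 0.700 and 0.721 in wild-type libraries 1 to 4 (-0.76). Without wild-type libraries 1 and 2, or without 3 and 4, the direction of these 4 was the same, but none was called. The smallest exact p is then 0.0476 before adjustment, so a call would need every ratio compared to reach that minimum.

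**Figure D4:**
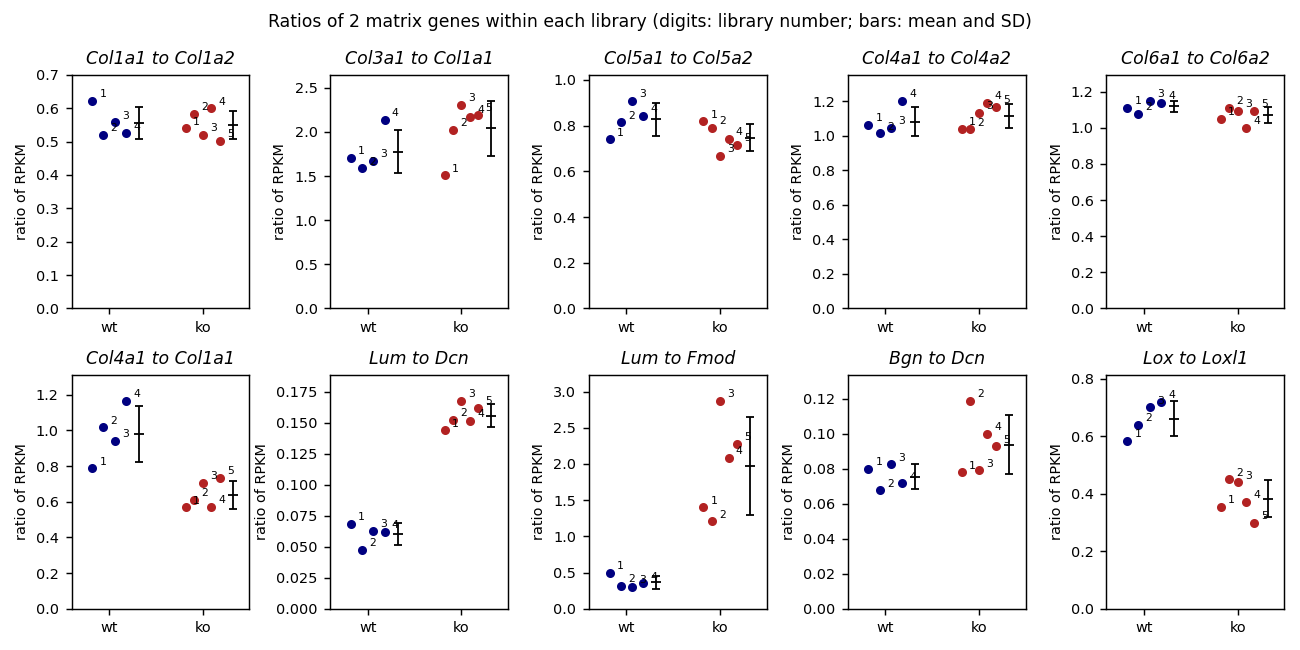
Ratio of RPKM of 2 matrix genes within each library (y axis, from 0) for the 10 pairs, wild type in blue and knock-out in red, with each point's digit giving the library number and bars the mean and SD. Genotypes are apart for Col4a1 to Col1a1, Lum to Dcn, Lum to Fmod and Lox to Loxl1, and overlap for the other 6.

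The neighbouring genes of the matrix pathway, from lists that do not hold the members, were read next. Counts of each list as deposited are to be read against the 37.0% of all genes called higher and 14.8% called lower. Centred, these shares were 25.1% and 24.9%. They were 28.6% and 13.5% without wild-type libraries 1 and 2, and 36.8% and 12.0% without 3 and 4. Of 31 other collagens, 9 passed the filter, and 5 of these rose and 1 fell (3 and 1 centred), with a median of 0.39. Of the 5, Col4a5 (0.599 RPKM in the knock-out, 0.439 in the wild type) passed the filter only through its knock-out level. In this list 3 rose and 1 fell without wild-type libraries 1 and 2, and 6 and 1 without 3 and 4. Col24a1, a minor fibrillar collagen, rose from 1.37 to 4.12 RPKM (log2 difference 1.52, SE 0.17, limma adjusted p = 2.1e-05) and Col5a3, a further collagen V chain, from 2.85 to 7.57 RPKM (log2 difference 1.39, SE 0.12, limma adjusted p = 2.3e-06). Both had no overlap between genotypes, unlike the major fibrillar collagens above. Col22a1, the collagen of the muscle-tendon junction, fell from 3.81 to 1.78 RPKM (log2 difference -1.06, SE 0.09, limma adjusted p = 3.1e-06).

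Of 22 tested genes for collagen synthesis and folding, 7 rose and 3 fell (6 and 4 centred, median 0.17). These shares, 31.8% and 13.6%, lie below the 37.0% and 14.8% of all genes. P4hb, the disulphide isomerase that is also the beta subunit of prolyl 4-hydroxylase, rose from 48.5 to 74.6 RPKM (log2 difference 0.63, SE 0.07, limma adjusted p = 2.7e-05), and Crtap, of the prolyl 3-hydroxylase complex, from 2.43 to 3.91 RPKM (log2 difference 0.67, SE 0.14, limma adjusted p = 0.0019). P4ha2, a catalytic subunit of prolyl 4-hydroxylase, fell from 8.52 to 5.21 RPKM (log2 difference -0.70, SE 0.08, limma adjusted p = 1.7e-05). P4ha1, the other catalytic subunit tested, was not called as deposited (log2 difference -0.12, SE 0.07, limma adjusted p = 0.16), but was called lower when centred (-0.24, adjusted p = 0.023). Pcolce2, an enhancer of procollagen cleavage, fell from 2.83 to 1.85 RPKM (log2 difference -0.61, SE 0.15, limma adjusted p = 0.0047). Of 7 other basement membrane genes, 2 rose and none fell (1 and 2 centred): Lamb2, the laminin chain of the synaptic basement membrane, from 14.9 to 23.9 RPKM (log2 difference 0.67, SE 0.07, limma adjusted p = 1.5e-05), and Hspg2, perlecan, from 8.27 to 10.5 RPKM (log2 difference 0.34, SE 0.10, limma adjusted p = 0.017), which was not called when centred or without wild-type libraries 1 and 2.

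The list of 29 tested other glycoproteins and proteoglycans had 4 genes higher and 4 lower (4 and 7 centred, median 0.05). Here 5 rose and 7 fell without wild-type libraries 1 and 2, and 10 and 3 without 3 and 4. Spp1, osteopontin, a matricellular protein that macrophages also make, rose from 2.48 to 5.71 RPKM (log2 difference 1.27, SE 0.30, limma adjusted p = 0.0039), and Mfap2, of elastic microfibrils, from 0.925 to 1.58 RPKM (log2 difference 0.73, SE 0.23, limma adjusted p = 0.018). Wisp2, of the same family as Ctgf, fell from 0.705 to 0.351 RPKM (log2 difference -0.84, SE 0.22, limma adjusted p = 0.007), and Comp, a thrombospondin of cartilage and tendon like Thbs4, from 2.61 to 1.66 RPKM (log2 difference -0.62, SE 0.23, limma adjusted p = 0.042). Wisp2, with a mean of 0.508 RPKM over all libraries, passed the filter only through its wild-type level. Spp1 was at 0.79, adjusted p = 0.015 without wild-type libraries 1 and 2. Mfap2 was not called without wild-type libraries 1 and 2 (0.33, adjusted p = 0.23), nor Comp without 3 and 4 (adjusted p = 0.41).

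The pathway of transforming growth factor beta, other than Tgfb1 itself, had 6 of 21 genes higher and 10 lower (5 and 10 centred, median -0.12). Of these genes 7 rose and 7 fell without wild-type libraries 1 and 2, and 5 and 8 without 3 and 4. Ltbp1, which holds the latent growth factor in the matrix, measured 5.37, 5.11, 6.08, 5.61 and 5.36 RPKM in knock-out libraries 1 to 5. Wild-type values were 1.37, 1.37, 1.85 and 1.83 RPKM. It rose 3.31-fold (log2 difference 1.73, SE 0.10, limma adjusted p = 1.4e-07). Tgif1, a repressor of Smad-driven transcription, rose from 2.50 to 4.87 RPKM (log2 difference 1.03, SE 0.23, limma adjusted p = 0.0031), and was at 0.51, adjusted p = 0.0066 without wild-type libraries 3 and 4. Smad7, an inhibitor that the pathway induces, fell from 0.976 to 0.479 RPKM (log2 difference -0.91, SE 0.17, limma adjusted p = 9.8e-04), and Lrrc32, which tethers latent growth factor to the cell surface, from 1.60 to 0.795 RPKM (log2 difference -0.86, SE 0.29, limma adjusted p = 0.026), not called without wild-type libraries 1 and 2 (-0.32, adjusted p = 0.32). Smad7 passed the filter only through its wild-type level. The same held for Smad6, also called lower (0.446 RPKM in the knock-out, 0.688 in the wild type).

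Of 18 tested matrix receptors, 8 rose and 4 fell (7 and 5 centred, median 0.12). Itgav, the integrin chain of receptors that bind latent transforming growth factor beta, measured 7.65, 7.68, 9.88, 8.55 and 9.52 RPKM in knock-out libraries 1 to 5. Wild-type values were 3.56, 3.42, 3.86 and 4.37 RPKM. It rose 2.24-fold (log2 difference 1.16, SE 0.10, limma adjusted p = 2.3e-06). Cd44, the hyaluronan receptor, rose from 0.978 to 2.08 RPKM (log2 difference 1.02, SE 0.12, limma adjusted p = 3.1e-05). Itga1, a collagen-binding integrin chain, fell from 1.39 to 0.750 RPKM (log2 difference -0.82, SE 0.21, limma adjusted p = 0.0067; adjusted p = 0.078 without wild-type libraries 3 and 4), and Itga3, a laminin-binding chain, from 1.03 to 0.564 RPKM (log2 difference -0.76, SE 0.14, limma adjusted p = 6.6e-04).

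**Figure D5:**
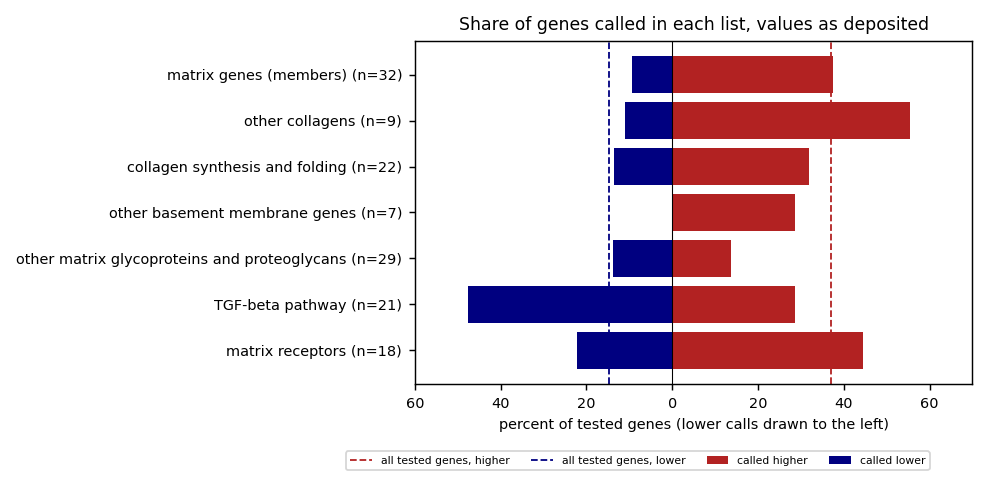
Percent of tested genes called higher (red, right) and lower (blue, left) in the matrix list and in 6 lists of neighbouring genes, values as deposited, with dashed lines at the shares of all tested genes (37.0% and 14.8%). The matrix list ends beside the red line and short of the blue one, and the growth factor list extends past the blue line with 10 of 21 genes lower.

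Markers of the cells that could carry these transcripts were read as well, and their part in the results above was not tested. In bulk muscle, fewer cells of a type and less RNA per cell cannot be told apart. Of 21 fibroblast markers, of which Pdgfra and Dcn are members, 8 rose and 4 fell (38.1% and 19.0%, near the 37.0% and 14.8% of all genes). Dpp4, among the 4, passed the filter only through its wild-type level (0.658 RPKM, knock-out 0.440). When centred, 8 of the 21 rose and 6 fell (25.1% and 24.9% of all genes). Without wild-type libraries 3 and 4, 9 of the 21 rose and none fell (36.8% and 12.0% of all genes). Without 1 and 2, 5 rose and 5 fell (28.6% and 13.5% of all genes). Their summed level was 676 to 881 RPKM (knock-out) and 526 to 651 RPKM (wild type). Macrophage markers, of cells that also make Tgfb1 and Spp1, rose in 10 of 12 (83.3%, against 37.0% of all genes) with none lower, and summed to 80.3 to 138 RPKM (knock-out) and 33.5 to 45.2 RPKM (wild type) with no overlap. Among the 10, Emr1 and Mpeg1 (0.368 and 0.382 RPKM in the wild type) passed the filter only through their knock-out level. Knock-out library 4, the highest for most matrix genes, had the highest macrophage sum (138 RPKM, of which Lyz2 was 55.6 RPKM). Its Tgfb1 level was the lowest of the knock-out, and a relation between the sum and Tgfb1 was not tested.

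For the lists that follow, all tested genes were 37.0% higher and 14.8% lower as deposited, and 25.1% and 24.9% centred. Without wild-type libraries 1 and 2 these shares were 28.6% and 13.5%, and without 3 and 4 they were 36.8% and 12.0%. Tendon markers, of which Fmod and Thbs4 are members, rose in 1 of 7 and fell in 4 (14.3% and 57.1%), and summed to 34.3 to 56.2 RPKM (knock-out) and 50.6 to 74.7 RPKM (wild type). Scx, the tendon transcription factor, rose from 2.64 to 4.82 RPKM (log2 difference 0.83, SE 0.14, limma adjusted p = 3.9e-04), whereas Tnmd, tenomodulin, was not called (log2 difference -0.25, SE 0.18, limma adjusted p = 0.28). Fmod, Thbs4, Comp and Chad were the 4 that fell. Without wild-type libraries 3 and 4 Thbs4 alone of these was called, and Fmod, Comp and Chad were at -0.20, -0.24 and -0.36 (adjusted p from 0.34 to 0.45). Endothelial markers, of cells that lay down collagen IV, fell in 8 of 12 (66.7%) with none higher (0 and 11 centred). Without wild-type libraries 3 and 4, 5 of the 12 fell, and without 1 and 2, 11 fell. They summed to 35.5 to 63.6 RPKM (knock-out) and 50.3 to 83.6 RPKM (wild type), with overlap. Smooth muscle and pericyte markers rose in 3 of 10 and fell in 2 (30.0% and 20.0%, near the shares of all genes). They summed to 89.2 to 145 RPKM (knock-out) and 95.7 to 127 RPKM (wild type). Cnn1, among the 3, passed the filter only through its knock-out level (0.982 RPKM, wild type 0.474). The balance of these markers turned when centred (1 rose and 3 fell) and without wild-type libraries 1 and 2 (2 rose and 3 fell). Adipocyte markers fell in 3 of 7 (42.9%), or 5 when centred, with none higher in either (185 to 294 RPKM (knock-out) and 194 to 323 RPKM (wild type)). None of the 5 Schwann cell markers tested was called. Without wild-type libraries 3 and 4, 2 adipocyte and 2 Schwann cell markers rose, and without 1 and 2, 1 Schwann cell marker fell. Slow fibre markers rose in 6 of 6 (5 centred), from 45.4 to 176 RPKM in the wild type to 164 to 411 in the knock-out, and overlapped. None of the markers in these lists was listed at 0 in all libraries.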

How the data were processed

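RNA had been extracted with Trizol and sequenced from TruSeq libraries, per the labels' protocols. The authors deposited RPKM values (reads scaled to length and library size) by RefSeq transcript and library, without pooling. Build mm9 and the tools TopHat 1.3.2, Bowtie 0.12.7.0 and Partek 6.6 are named, per the submitters' processing notes; roles, strand and filters: not given in the sources used here. All value columns were used (0 left out).

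The 23665 lines were summed to 18062 genes; 36 of 37 symbols turned into dates by a spreadsheet were restored through the accession. Of 265 symbols in the lists, 263 were found. RPKM values are not counts, so genes with a mean of at least 0.5 entered limma 3.58.1 (R 4.3.3) as log2(RPKM + 0.1) values (eBayes with trend, two-sided, Benjamini-Hochberg over 11032 genes, threshold 0.05), which understates changes of low genes. The fit was tested on simulated data. Ratios had exact permutation tests over 126 splits; an 11th planned pair needed Col6a3. Low values gave 70.8% to 74.3% of reads within 0.1 of a whole number, too few to recover exact counts. Approximate counts served the chi-square per gene only. Other software was Python 3.11.15, pandas 2.3.3, numpy 2.4.6, scipy 1.17.1 and matplotlib 3.10.9. RPKM totals were 349239 to 374056 (knock-out) and 315337 to 327517 (wild type).

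Members and lists were chosen with earlier results of these data known. All members are accounted for; of each pathway list the 2 called genes with the largest positive and the 2 with the largest negative difference are named. Alternatives covered pseudocounts of 1 and 0.01, no filter or a mean of 2, centring, quantile normalization, removal of a length trend (22640 transcripts had a length), the highest transcript, a replicate block, limma without trend and leaving out each library. Leaving out wild-type libraries 1 and 2, or 3 and 4, was chosen after seeing the data.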

Additional observations from a re-analysis of the deposited data

Results flagged for a closer look

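Of 64 groups tested (32 genes in each genotype), 3 had 1 library far from the others of its group in RPKM, where chance flags about 1 in 20 groups. Col1a1 was low in wild-type library 2, at 10.3 RPKM against 13.9 to 14.5 in the other 3. Ogn was high in knock-out library 4, at 15.7 RPKM against 11.5 to 12.0 in the other 4. Postn was high in wild-type library 1, at 9.16 RPKM against 1.84 to 2.61 in the other 3, and all 3 of its transcripts were highest there.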

How the results depend on the processing

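Over 21 alternatives, members called higher ran from 6 to 14 and lower from 1 to 8, against 12 and 3. Lower calls numbered 8 with centring, 8 with quantile normalization, 5 with the length trend removed and 1 each with no filter, with the highest transcript, without trend and with the replicate block. Leaving out 1 library gave 10 to 14 higher and 1 to 6 lower. Without wild-type libraries 1 and 2 there were 6 higher and 6 lower. The median member difference ran from 0.12 to 0.41, and Gaa from -3.95 to -3.50, lower in all settings.

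Of the members' values under the alternatives, 579 kept direction and call, 53 lost the call, 27 gained one and 10 changed sign; the cause was not tested. Leaving out 1 library, the difference ran over -0.67 to 0.078 for Postn, -0.27 to 0.016 for Col14a1 and -0.18 to 0.024 for Ogn. Without wild-type libraries 1 and 2, Col5a1 was at -0.046 and Ctgf at 0.38. Without libraries 3 and 4, Nid1 was at 0.0052, Col14a1 at 0.11, Fbn1 at 0.080, Eln at 0.075 and Ogn at 0.12.

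Ratios called were 4 in the main test, 0 to 4 without 1 library, and 0 without wild-type libraries 1 and 2 or 3 and 4. Without a knock-out library the smallest exact p is 0.0286, and without 2 wild-type libraries 0.0476. After adjustment a call there would need most or all of the ratios to reach that minimum together, and none was called. The ratio of Col1a1 to Col1a2, near 0 on the log2 scale, ran over -0.051 to 0.037 without 1 library and was 0.018 without wild-type libraries 1 and 2, where Col4a1 to Col4a2 was at -0.014.

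The genotypes share replicate numbers, but same-numbered libraries did not deviate together (r of 0.1003, -0.1377, -0.137 and 0.147). With the number as a replicate block, which drops knock-out library 5, 10 members were higher and 1 lower, the sign of Col1a1 to Col1a2 turned (0.012) and 0 ratios were called, since 4 pairs allow no exact p under 0.125. Precision is limited by depth most in knock-out library 3.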
